A study of Mus musculus with 22 samples.

Results

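Of the 55141 genes in the deposited count tables, 35 genes of DNA replication and mitosis were selected by gene symbol and followed through mouse embryonic stem (mES) cells, endoderm cultures and gastruloids. They comprised 13 genes of replication licensing and the replicative helicase, 3 genes of nucleotide supply, 2 E-type cyclins, 3 D-type cyclins and 14 genes of mitosis. The first 2 classes are called the 16 replication genes. All 35 were found in the tables and all 35 passed the filter on low counts in every comparison.

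The study measured poly(A) RNA by RNA-seq in 22 libraries that fall into 10 groups. Wild-type (wt) cells and cells labelled Hox-/-, called BADC in the sample titles, were grown as mES cells with LIF (100 ng/ml), a MEK inhibitor (1 µM) and CHIR99021 (3 µM), which blocks GSK-3 (2 libraries per genotype). They were also taken to endoderm with 100 ng/ml Activin A and 3 µM CHIR99021, supplied at 24 h and 72 h and harvested at 120 h (3 libraries per genotype). Gastruloids, clumps of stem cells that form embryo-like tissues in culture, were wt and Hox-/- with Activin A, or wt labelled Chiron, each collected at 96 h and at 120 h (2 libraries per group). All groups descend from mES cells, and the labels describe the gastruloids as mixed cells, give no gastruloid doses and do not say how many cell clones were used.

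Cells license DNA for copying by loading the MCM helicase onto origins with the help of CDC6 and CDT1, and then fire the helicase by adding CDC45 and the GINS complex. D-type cyclins start the passage out of G1 by driving phosphorylation of the retinoblastoma protein, which frees E2F factors to switch on E-type cyclins and replication genes. Mitosis genes are switched on later, in G2, largely through the MuvB complex with MYBL2 and FOXM1, and act in entry into mitosis, in the spindle checkpoint and in chromosome segregation. Mouse embryonic stem cells are known for a short G1 phase, which lengthens as they differentiate.

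Library totals ran from 9.11 M to 28.8 M counts, and the 96 h gastruloid libraries (14.95 M to 28.8 M) were deeper than the 120 h ones (9.11 M to 11.9 M). The genes of the 4 Hox clusters, 39 in all, summed to 829 to 877 CPM (a gene's counts scaled by the library total) in wt endoderm and 22.5 to 28.6 CPM in Hox-/- endoderm. In Activin A gastruloids at 120 h they summed to 1167 to 1190 CPM in wt and 63.8 to 69.5 CPM in Hox-/- libraries, in which 12 of the 39 genes were above 3 counts. The 6 pluripotency markers summed to 5388 to 5557 CPM in the mES libraries, and all 8 endoderm markers were above 3 counts in every endoderm group. Because whole cultures were sequenced, fewer cells of a type and less RNA per cell cannot be told apart.

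Levels of different genes were compared per length, as FPKM. In wt mES cells the highest of the 35 was Mcm5, a helicase subunit, at 266 ± 0.64 FPKM (mean ± SD, n = 2), ahead of Mcm7 at 246 ± 1.23 FPKM. Pcna, the sliding clamp of DNA polymerase, stood at 226 ± 2.92 FPKM, and Mcm3 and Rrm2 followed at 223 ± 3.17 and 223 ± 3.69 FPKM, which do not differ beyond their spread. Ccnd2 was the lowest at 0.22 ± 0.025 FPKM, below Ccne2 at 5.77 ± 0.37 FPKM and the kinetochore motor gene Cenpe at 15.5 ± 0.48 FPKM. In wt endoderm Pcna led at 134 ± 5.34 FPKM (n = 3), and Mcm7 at 109 ± 2.10 FPKM and Cdk1, the kinase that drives mitosis, at 108 ± 7.08 FPKM lay within their spread of each other. A processed copy of Pcna reached 82.4 CPM, so reads may be shared between them and the Pcna values are uncertain. Exons of 11 of the 35 genes overlap exons of another annotated gene (Mcm7, Cdc45, Gins2, Ccne2, Ccnd1, Ccnd2, Ccnd3, Ccna2, Cdc20, Plk1 and Top2a). The sources used here do not state whether counting used strand, so reads of such pairs cannot be separated. The longest overlap, 2758 bases on the opposite strand, was between Gins2 and Gse1.

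Because the replication and mitosis genes are read by different factors, the bases before their start sites were compared. RefSeq promoters (build GRCm38.p6, 250 bases before the start) were matched for 27 of the 35 genes, giving 29 promoters. Aurkb, Ccna2, Ccnd1, Ccnd2, Ccne2, Gins1, Gins2 and Mcm4 were not matched. They were searched on both strands for the cell cycle homology element (CHR), TTTGAA or TTCGAA. The CCAAT box was searched as CCAAT, and the E2F site as TTTCGCGC or TTTGGCGC or TTTCCCGC or TTTGCCGC. All 12 mitosis promoters and 11 of 14 replication promoters held a CCAAT box, against 33.8% of all 32851 promoters of that length. A CHR stood in 6 of the 12 mitosis promoters (50.0%) and in 3 of the 14 replication promoters (21.4%), against 17.1% of all promoters. An E2F site stood in 4 of the 14 replication promoters (28.6%) and in 1 of the 12 mitosis promoters (8.33%), against 1.86% of all promoters. These matches are letters in a window, not binding sites, and in the stretches shown no match of one motif overlaps a match of another. The stretches around the matches are shown for 3 mitosis genes (Cdk1, Ccnb2 and Top2a, with CHR and CCAAT) and 2 replication genes (Cdc6, the licensing loader, with E2F, and Mcm6, a helicase subunit, with E2F and CCAAT), each 5′ to 3′ on the gene's strand with matches in capitals.
Cdk1, chr10:69352913-69353135, minus strand: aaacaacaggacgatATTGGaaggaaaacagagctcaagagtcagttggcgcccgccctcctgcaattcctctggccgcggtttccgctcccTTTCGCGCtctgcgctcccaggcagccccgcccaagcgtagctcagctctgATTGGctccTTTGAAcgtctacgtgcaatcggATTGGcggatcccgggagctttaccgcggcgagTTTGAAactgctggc
Ccnb2, chr9:70421556-70421736, minus strand: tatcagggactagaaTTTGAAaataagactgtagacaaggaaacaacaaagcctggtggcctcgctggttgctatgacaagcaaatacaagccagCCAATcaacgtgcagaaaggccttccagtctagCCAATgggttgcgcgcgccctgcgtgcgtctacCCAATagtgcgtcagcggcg
Top2a, chr11:99024192-99024431, minus strand: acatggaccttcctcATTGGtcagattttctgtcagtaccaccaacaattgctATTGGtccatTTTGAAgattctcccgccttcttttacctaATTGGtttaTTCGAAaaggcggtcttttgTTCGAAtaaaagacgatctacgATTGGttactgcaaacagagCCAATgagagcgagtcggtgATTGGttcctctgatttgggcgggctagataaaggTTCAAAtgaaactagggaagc
Cdc6, chr11:98907998-98908035, plus strand: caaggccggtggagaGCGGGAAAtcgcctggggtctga
Mcm6, chr1:128359706-128359830, minus strand: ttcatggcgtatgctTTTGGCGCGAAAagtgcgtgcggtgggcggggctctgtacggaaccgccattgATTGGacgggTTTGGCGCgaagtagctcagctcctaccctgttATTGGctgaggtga
In Mcm6 the leftmost capital run joins E2F matches on both strands that overlap. Cdk1 was the one mitosis gene among them with an E2F match, and it lies in the same window as its CHR and CCAAT matches.

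Nearly the whole set was lower in endoderm cultures than in mES cells. In wt cells 33 of the 35 genes were called lower and 2 higher, called meaning an adjusted p under 0.05 in edgeR's quasi-likelihood test with Benjamini-Hochberg adjustment over all genes tested. Over all genes tested 38.3% were called lower and 41.6% higher, beside 94.3% lower in the set. In Hox-/- cells 32 were lower and 3 higher, against 37.9% and 42.7% of all genes. The median log2 fold change of the 35 was -1.10 in wt and -1.03 in Hox-/- cells, beside 0.07 and 0.10 over all genes. All 16 replication genes and all 14 mitosis genes were called lower in wt cells. In Hox-/- cells 15 of 16 and 14 of 14 were, with Rrm1, the large subunit of ribonucleotide reductase, called higher (0.14 ± 0.05, log2 fold change ± SE). These contrasts join mES and endoderm tables deposited separately. The media differed too, with LIF and the MEK inhibitor listed for mES cells and Activin A for endoderm. Table, medium and cell type therefore cannot be told apart.

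Ccne1, which with CDK2 pushes cells into S phase, had the largest fall. It was at 166 and 156 CPM in wt mES cells, 170 and 160 CPM in Hox-/- mES cells, 33.7, 30.4 and 32.7 CPM in wt endoderm and 43.9, 40.3 and 40.8 CPM in Hox-/- endoderm. No library of one stage reached the range of the other, and the log2 fold change was -2.44 ± 0.06 in wt and -2.07 ± 0.06 in Hox-/- cells. Its relative Ccne2 went the other way, from 16.9 and 19.0 CPM to 26.9, 24.7 and 20.4 CPM in wt cells (0.30 ± 0.11, adjusted p = 0.014). In Hox-/- cells it went from 16.9 and 19.3 CPM to 33.7, 33.1 and 32.1 CPM (0.79 ± 0.10). By FPKM, Ccne2 made up 6.95% ± 0.70 of the E-type cyclin level in wt mES cells and 34.1% ± 3.05 in wt endoderm. The call for Ccne2 in wt cells was lost when wt mES replicate 1 (adjusted p = 0.14) or wt endoderm replicate 1 (adjusted p = 0.060) was left out.

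Rrm2, the small subunit of ribonucleotide reductase, was at 492 and 501 CPM in wt mES cells and 138, 137 and 132 CPM in wt endoderm (-1.99 ± 0.05). Mcm5 went from 739 and 732 CPM to 224, 236 and 256 CPM (-1.74 ± 0.05). Mcm10, which helps activate the helicase, went from 244 and 255 CPM in Hox-/- mES cells to 71.6, 77.4 and 71.8 CPM in Hox-/- endoderm (-1.84 ± 0.05). In all of these the stages are apart by more than 2 times. Among mitosis genes the change was largest for Aurka, a spindle kinase, in wt cells (-1.37 ± 0.06) and for Ccnb1, the cyclin partner of CDK1, in Hox-/- cells (-1.63 ± 0.05). It was smallest for the checkpoint kinase Bub1 in wt cells (-0.25 ± 0.06) and for Mki67, the proliferation marker, in Hox-/- cells (-0.41 ± 0.07). Of 36 other replication genes 31 were called lower in each genotype, and of 34 other mitosis genes 34 were.

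**Figure D1:**
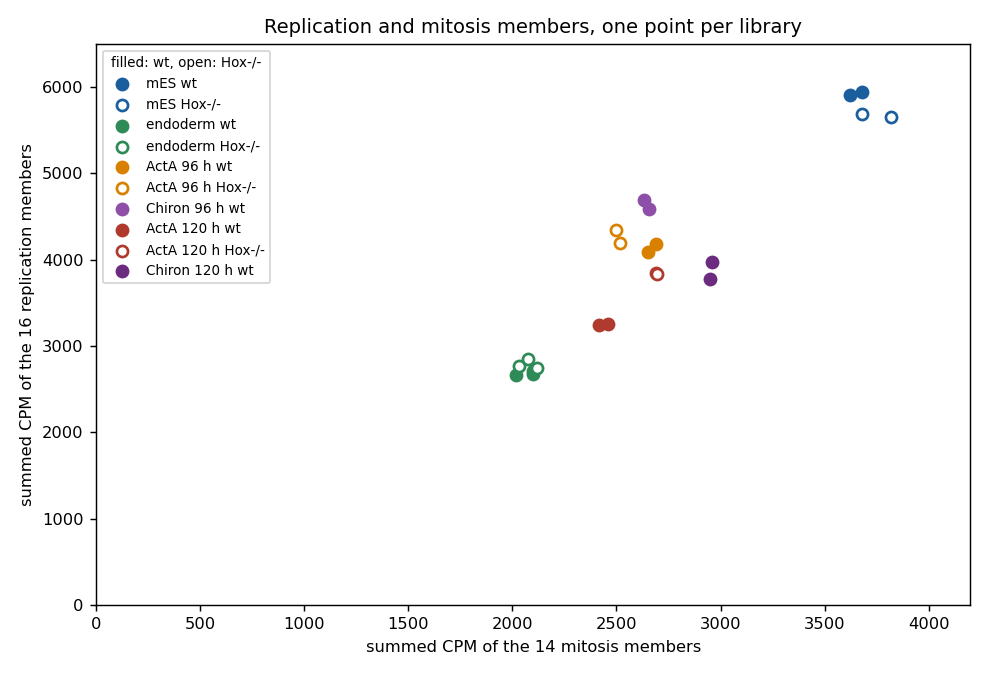
Summed CPM of the 16 replication genes (vertical axis) against the summed CPM of the 14 mitosis genes (horizontal axis), one point per library, filled for wt and open for Hox-/-. The mES libraries stand highest on both axes, the endoderm libraries lowest, and the gastruloid libraries lie between.

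Of the D-type cyclins, Ccnd2 rose between these stages while Ccnd1 and Ccnd3 fell. Ccnd2 was at 1.33 and 1.55 CPM in wt and at 1.34 and 1.34 CPM in Hox-/- mES cells. It was at 143, 132 and 132 CPM in wt endoderm and at 258, 246 and 239 CPM in Hox-/- endoderm. The rise between stages was 6.44 ± 0.11 on the log2 scale in wt and 7.44 ± 0.11 in Hox-/- cells. Ccnd3 went from 391 and 396 CPM to 153, 154 and 183 CPM in wt cells (-1.38 ± 0.07), and Ccnd1 from 206 and 201 CPM to 82.1, 87.9 and 91.2 CPM (-1.34 ± 0.06). By FPKM, Ccnd3 made up 77.3% ± 0.59 of the D-type cyclin level in wt mES cells (n = 2) and 63.0% ± 2.46 in wt endoderm (n = 3). In wt Activin A gastruloids at 96 h Ccnd1 had the largest share, 43.8% ± 0.17, and Ccnd2 18.6% ± 0.006.

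In mES cells few genes of the set were called between genotypes. Of the 35, 1 was called higher and 4 lower in Hox-/- cells, which is 2.86% and 11.4% against 12.4% and 10.8% of all genes. Bub1 was at 117 and 131 CPM in wt and 145 and 162 CPM in Hox-/- libraries (0.31 ± 0.06, adjusted p = 1.3e-04). Cdt1, the licensing factor that loads MCM, was at 199 and 198 CPM in wt and 177 and 149 CPM in Hox-/- (-0.28 ± 0.06). Cdc20, an activator of the anaphase-promoting complex, was at 259 and 258 CPM in wt and 234 and 220 CPM in Hox-/- (-0.19 ± 0.05). The 2 genotypes do not overlap in these genes, which were named for their large changes. Ccnd1 was at 206 and 201 CPM in wt and 182 and 174 CPM in Hox-/- (-0.19 ± 0.05), and the fourth lower gene, Tyms, which makes thymidylate, had a log2 fold change of -0.16 ± 0.06. Ccnd2 (-0.09 ± 0.35) and Ccnd3 (0.07 ± 0.05; 438 and 391 CPM in Hox-/-) were not called. Without wt mES replicate 1 no member was called higher and 1 lower; without Hox-/- mES replicate 1, 3 were higher and 7 lower. GC and length offsets gave 2 higher and 9 lower.

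In endoderm the cyclins of the G1 phase were higher in Hox-/- cultures. All 3 D-type and both E-type cyclins were called higher, together with Rrm1, Rrm2, Mcm4 and Cdc6, and 7 genes were called lower. That is 25.7% of the 35 higher and 20% lower, near the 23.1% higher and 23.1% lower of all genes tested. The median log2 fold change of the 35 was 0.05, beside 0.00 for all genes. With GC and length offsets the split was 15 higher and 4 lower, and the shares of all genes under these offsets are not given here.

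Ccnd2 led: Hox-/- libraries at 258, 246 and 239 CPM all exceeded wt libraries at 143, 132 and 132 CPM (0.88 ± 0.05, adjusted p = 7.4e-09). Ccnd1 was at 157, 145 and 149 CPM in Hox-/- and 82.1, 87.9 and 91.2 CPM in wt (0.80 ± 0.06). Ccnd3 was at 218, 196 and 214 CPM in Hox-/- and 153, 154 and 183 CPM in wt (0.36 ± 0.07). The groups do not overlap for any of the 3, which were named by rule in each comparison. The share of all genes without overlap is not given, and 46.2% of all genes were called in this comparison. Ccne2 was at 33.7, 33.1 and 32.1 CPM in Hox-/- and 26.9, 24.7 and 20.4 CPM in wt (0.47 ± 0.09), and Ccne1 had a log2 fold change of 0.38 ± 0.07. Ccne2 shares 609 exon bases with Ints8 on the opposite strand, and Ccnd1 1100 with LTO1.

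The replication genes split in Hox-/- endoderm: Rrm1 (0.40 ± 0.05), Rrm2 (0.29 ± 0.05), Mcm4 (0.20 ± 0.05) and Cdc6 (0.17 ± 0.06) were higher. Cdt1 was at 94.6, 80.5 and 94.2 CPM in Hox-/- and 108, 104 and 124 CPM in wt (-0.31 ± 0.08). Gins2, a subunit of the GINS complex, was at 40.2, 41.2 and 45.2 CPM in Hox-/- and 47.0, 54.8 and 50.0 CPM in wt (-0.26 ± 0.07). Its partner Gins1 (-0.24 ± 0.08), the helicase component Cdc45 (-0.18 ± 0.06), Mcm5 (-0.14 ± 0.05) and Mcm10 (-0.13 ± 0.05) were also lower. The call for Gins2 was lost without wt endoderm replicate 2 (adjusted p = 0.064), and GC and length offsets took that for Cdt1 (adjusted p = 0.071). Among the 14 mitosis genes only Ccnb1 was called, at 123, 130 and 128 CPM in Hox-/- and 158, 154 and 149 CPM in wt (-0.26 ± 0.05). The other 13 ranged from -0.14 (Aurkb) to 0.13 (Plk1). Beside these genes, the pluripotency markers summed to 745 to 881 CPM in wt and 221 to 241 CPM in Hox-/- endoderm, and the 8 endoderm markers to 1118 to 1123 and 685 to 738 CPM; their part in the result was not tested.

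The difference between stages in the genotype effect was tested directly. For 9 of the 35 genes the genotype effect was called more positive in endoderm than in mES cells and for 2 less positive, against 11.6% and 12.5% of all genes. The 9 were all 3 D-type and both E-type cyclins, Rrm1, Rrm2, Mcm4 and Mcm6. The largest differences were in Ccnd1 (1.01 ± 0.08) and Ccnd2 (1.00 ± 0.29), and the less positive genes were Ccnb1 (-0.29 ± 0.07) and Cdc45 (-0.24 ± 0.08). The call for Cdc45 was lost in 10 alternatives (adjusted p = 0.050 to 0.36), among them the omission of any 1 mES library. Ccnd2 lay near 1 CPM in mES cells, and its call was lost when any 1 of the 4 mES libraries was left out (adjusted p = 0.058 to 0.13). With total counts alone the split was 8 more positive and 4 less positive, and with GC and length offsets 13 and 1.

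Activin A gastruloids at 96 h showed higher replication genes and a few lower mitosis genes in Hox-/- libraries. Of the 35, 11 were called higher and 4 lower, 31.4% and 11.4% against 22.2% and 16.7% of all genes. Of the 16 replication genes 7 were higher and 0 lower, and of the 14 mitosis genes 1 was higher and 4 lower. This split depended on scaling: total counts alone gave 8 higher and 10 lower, no filter the same, and GC and length offsets 20 higher and 4 lower. The shares of all genes under these settings are not given here. The replication genes called higher were Rrm2 (0.21 ± 0.04), Cdc45 (0.19 ± 0.05), Pcna, Mcm10, Mcm7, Cdt1 and Mcm2 (0.10 ± 0.04).

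Ccnd2 again led, at 362 and 394 CPM in Hox-/- and 213 and 209 CPM in wt libraries (0.89 ± 0.04, adjusted p = 4.1e-25). Ccnd3 was at 174 and 176 CPM in Hox-/- and 134 and 134 CPM in wt (0.43 ± 0.04). Ccne2 was at 50.7 and 42.9 CPM in Hox-/- and 37.7 and 36.2 CPM in wt (0.41 ± 0.06). Ccnd1 was at 241 and 271 CPM in Hox-/- and 281 and 273 CPM in wt, and was not called (-0.07 ± 0.04). Its sign turned with GC and length offsets (0.02) and without Hox-/- replicate 1 (0.02), so no direction can be given. The lower mitosis genes were the motor Cenpe, at 34.5 and 35.7 CPM in Hox-/- and 44.0 and 46.3 CPM in wt (-0.31 ± 0.06), and the kinetochore protein gene Cenpf, at 67.0 and 64.4 against 81.3 and 78.7 CPM (-0.23 ± 0.05). Mki67 was at 139 and 138 CPM in Hox-/- and 169 and 158 CPM in wt (-0.19 ± 0.04), and Aurka had a log2 fold change of -0.16 ± 0.04. Mki67 lost its call in one fit over all 22 libraries (adjusted p = 0.054).

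Beside the 96 h genotype comparison, the endoderm markers summed to 1033 to 1143 CPM in wt and 589 to 608 CPM in Hox-/- gastruloids, with Sox17 (-4.79 ± 0.12), Foxa2 (-3.02 ± 0.08) and Cldn6 (-2.84 ± 0.06) called lower. The pluripotency markers summed to 1058 to 1085 and 931 to 948 CPM, and the presomitic and somitic markers to 120 to 130 and 146 to 159 CPM. These sums hold markers that moved apart. Sox2 was called higher (0.73 ± 0.06), and Nanog (-0.20 ± 0.05), Esrrb (-2.34 ± 0.21), Zfp42 (-2.24 ± 0.24) and Dppa5a (-1.68 ± 0.06) lower. Msgn1 was called higher (0.70 ± 0.05), and Tbx6 (-0.27 ± 0.07), Meox1 (-2.45 ± 0.20) and Tcf15 (-0.54 ± 0.19) lower. Pou5f1 and Mesp2 were not called. The 3 neural progenitor markers summed to 1.09 to 1.87 and 4.07 to 5.95 CPM, with Olig2 at the floor of 3 counts in both. Of them Sox1 was called higher (2.28 ± 0.25) and Pax6 was not called. The part of all these markers in the result was not tested.

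At 120 h most of the set was higher in Hox-/- Activin A gastruloids. Of the 35, 26 were called higher and 4 lower, 74.3% and 11.4% against 24.9% and 25.5% of all genes, and the median log2 fold change was 0.27 beside -0.02 for all genes. Of the 16 replication genes 13 were higher and 3 lower, and of the 14 mitosis genes 10 were higher and 0 lower. Total counts alone gave 20 higher and 6 lower and moved the median of all genes to -0.13; GC and length offsets gave 30 and 1 and moved it to 0.16.

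Rrm1 had the largest rise, at 357 and 357 CPM in Hox-/- and 244 and 242 CPM in wt libraries (0.66 ± 0.04, adjusted p = 9.3e-19). Ccnd3 was at 115 and 111 CPM in Hox-/- and 82.0 and 85.9 CPM in wt (0.54 ± 0.05). Mcm6 was at 327 and 329 CPM in Hox-/- and 247 and 241 CPM in wt (0.54 ± 0.04), with Mcm4 (0.54 ± 0.04), Mcm3 (0.53 ± 0.04) and Mcm2 (0.44 ± 0.04) close by. Of the 6 MCM2-7 helicase genes, Mcm7 had 0.35 ± 0.04 and Mcm5 0.21 ± 0.04. Top2a, which untangles sister chromatids, led the mitosis genes at 495 and 498 CPM against 389 and 384 CPM (0.47 ± 0.04), followed by Ccna2 (0.41 ± 0.04). Aurka, Aurkb, Mki67 and Cenpe were not called. The lower genes were Gins2, at 93.1 and 90.9 CPM in Hox-/- and 133 and 123 CPM in wt (-0.37 ± 0.05), Gins1 at 43.5 and 45.9 against 53.5 and 55.7 CPM (-0.18 ± 0.07), Tyms at 99.0 and 98.7 against 117 and 116 CPM (-0.13 ± 0.05), and Ccnd2 at 188 and 185 against 218 and 216 CPM (-0.11 ± 0.05). Of these only Gins2 kept its call in every alternative run: leaving out 1 library gave 1 or 2 genes called lower, the other 3 lost the call with no filter or DESeq2 (Ccnd2 adjusted p = 0.21 and 0.16), and Gins1 turned sign with GC and length offsets (0.03). Ccnd1 was at 203 and 191 CPM in Hox-/- and 204 and 208 CPM in wt (0.05 ± 0.05, not called).

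Beside this comparison, the endoderm markers summed to 917 to 927 CPM in wt and 55.2 to 58.4 CPM in Hox-/- gastruloids at 120 h, and the presomitic and somitic markers to 359 to 367 and 622 to 631 CPM. The pluripotency markers summed to 114 to 115 and 28.0 to 29.1 CPM, with Zfp42 at the floor in Hox-/-. The neural progenitor markers summed to 33.7 and 4.66 to 6.83 CPM, with Olig2 at the floor in Hox-/-. The 3 endothelium markers summed to 26.4 to 33.7 and 47.6 to 49.3 CPM. Most of that sum was Kdr, at 24.1 and 31.4 CPM in wt and 44.7 and 46.1 CPM in Hox-/-. Cdh5 was at 1.08 and 1.21 against 2.50 and 2.71 CPM. Pecam1 went the other way, at 1.19 and 1.10 against 0.43 and 0.47 CPM. The part of cell composition in the result was not tested.

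The genotype effect differed between 96 h and 120 h for most of the set. It was called more positive at 120 h for 20 of the 35 and less positive for 4, against 18.7% and 20.2% of all genes. Of the mitosis genes 11 of 14 were more positive and 0 less positive, and of the replication genes 9 and 3. The largest were Rrm1 (0.60 ± 0.06) and Mcm6 (0.55 ± 0.06), and the less positive genes were Ccnd2 (-1.0 ± 0.06), Gins2 (-0.45 ± 0.07), Gins1 (-0.28 ± 0.09) and Tyms (-0.21 ± 0.06). With GC and length offsets, no filter, DESeq2 or one fit over all 22 libraries only 2 genes were less positive, Ccnd2 and Gins2. The genotype effect of Ccnd2 was 0.89 at 96 h and -0.11 at 120 h.

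**Figure D2:**
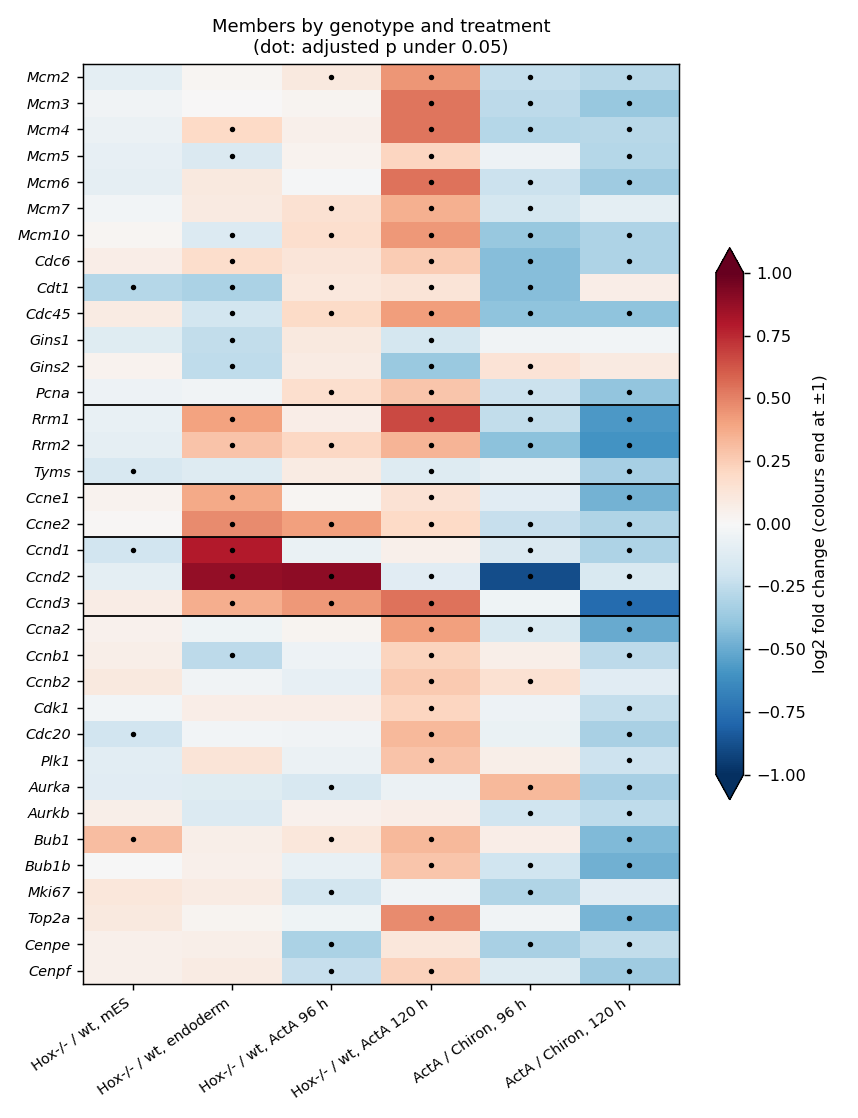
Log2 fold change (colour, ending at ±1) of the 35 genes in 4 genotype contrasts and 2 treatment contrasts, with a dot for an adjusted p under 0.05 and lines between the gene classes. The 120 h Activin A genotype column is mostly red with 26 genes called higher, and the Activin A against Chiron column at 120 h mostly blue with 29 called lower.

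Other genes of the pathway were read from lists of 36 replication, 34 mitosis and 27 regulator genes. In mES cells 3 replication genes were called higher and 6 lower, 4 mitosis genes higher and 6 lower, and 2 regulators higher and 4 lower. In endoderm the counts were 2 higher and 10 lower, 3 and 6, and 9 and 5 of 26 tested. In Activin A gastruloids they were 10 and 5, 5 and 4, and 10 and 10 at 96 h, and 18 and 4, 14 and 3, and 11 and 6 at 120 h. The shares called in either direction were 25.0%, 29.4% and 22.2% in mES cells, against 23.2% of all genes. They were 33.3%, 26.5% and 53.8% in endoderm against 46.2%, and 41.7%, 26.5% and 76.9% at 96 h against 38.9%. At 120 h they were 61.1%, 50.0% and 65.4% against 50.4%. In mES cells the list genes with the largest changes were Pole (0.21 ± 0.05), Dbf4 (0.18 ± 0.05), Tk1 (-0.31 ± 0.06) and Rfc3 (-0.23 ± 0.07) for replication, and Pttg1 (0.33 ± 0.08), Kif23 (0.19 ± 0.05), Spc24 (-0.36 ± 0.06) and Birc5 (-0.25 ± 0.05) for mitosis. The oncogene Myc was lower there (-1.13 ± 0.14), E2f8 was lower (-0.24 ± 0.08) and E2f1 higher (0.26 ± 0.06).

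In endoderm they were the replication genes Wdhd1 (0.23 ± 0.05), Clspn (0.22 ± 0.06), Pole2 (-0.53 ± 0.09) and Rfc5 (-0.35 ± 0.05), and the mitosis genes Kif20a (0.24 ± 0.05), Tpx2 (0.19 ± 0.05), Cdc25b (-0.76 ± 0.13) and Spc24 (-0.48 ± 0.09). Mybl2, the MuvB partner named above, was lower (-1.28 ± 0.06), at 55.1, 52.4 and 57.7 CPM in Hox-/- and 126, 140 and 139 CPM in wt. In Activin A gastruloids at 96 h they were Lig1 (0.41 ± 0.04), Orc4 (0.28 ± 0.05), Tk1 (-0.17 ± 0.05) and Orc3 (-0.15 ± 0.05), Nuf2 (0.20 ± 0.05), Ect2 (0.15 ± 0.05), Cdc25b (-0.68 ± 0.08) and Spc24 (-0.34 ± 0.05). At 120 h they were Pola1 (0.71 ± 0.07), Wdhd1 (0.52 ± 0.06), Pole2 (-0.34 ± 0.08) and Cdc7 (-0.28 ± 0.06), Kif20a (0.40 ± 0.04), Kif11 (0.38 ± 0.05), Cdc25b (-0.90 ± 0.09) and Spc24 (-0.41 ± 0.06). Spc24, a kinetochore gene, was the one mitosis gene named in all 4 genotype comparisons, at 95.1 and 94.9 CPM in wt and 78.4 and 69.7 CPM in Hox-/- mES cells. Among regulators at 96 h Rbl1 was higher (0.44 ± 0.05) and Myc lower (-0.62 ± 0.07), and at 120 h Cdk6 (1.06 ± 0.08) and Mycn (0.92 ± 0.05) were higher and Cdkn2b lower (-1.15 ± 0.27).

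The CDK inhibitors, which hold back cyclin-dependent kinases, moved by gene. Cdkn1a, encoding p21, was at 656, 579 and 641 CPM in Hox-/- and 294, 285 and 332 CPM in wt endoderm (1.05 ± 0.07). It was also higher in Hox-/- gastruloids at 96 h (0.66 ± 0.04) and 120 h (0.86 ± 0.05), and not called in mES cells (-0.05 ± 0.05). Cdkn2b was higher in Hox-/- endoderm (1.98 ± 0.09), as was Cdkn2a (0.79 ± 0.09). Cdkn2a was also higher in Hox-/- mES cells (0.54 ± 0.14), and lower in Hox-/- gastruloids at 96 h (-0.24 ± 0.09) and 120 h (-0.92 ± 0.13). Cdkn1c, encoding p57, was at 76.8 and 75.3 CPM in wt and 7.25 and 5.82 CPM in Hox-/- gastruloids at 96 h (-3.46 ± 0.08). It was lower in endoderm (-1.87 ± 0.12) and at 120 h (-2.60 ± 0.08), and not called in mES cells near 1 CPM (-1.07 ± 0.49). Cdkn1b was lower in endoderm (-0.23 ± 0.06) and at 120 h (-0.23 ± 0.06), and not called in mES cells (0.07 ± 0.08) or at 96 h (-0.10 ± 0.05).

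Wt gastruloids given Activin A were compared with those given Chiron. At 96 h, 20 of the 35 genes were called lower and 3 higher with Activin A, 57.1% and 8.57% against 30.2% and 31.3% of all genes. The lower genes held 12 of the 16 replication genes and 5 of the 14 mitosis genes, and total counts alone gave 17 lower and 6 higher. Ccnd2 was at 213 and 209 CPM with Activin A and 365 and 381 CPM with Chiron (-0.88 ± 0.05). Cdc6, the licensing loader, was at 58.2 and 58.9 against 74.2 and 76.6 CPM (-0.43 ± 0.06). Cdt1 was at 122 and 123 against 151 and 164 CPM (-0.43 ± 0.05). The groups do not overlap for these 3 genes, which were named for their large changes. Aurka was higher with Activin A, at 111 and 112 against 84.0 and 86.4 CPM (0.32 ± 0.05). Ccnb2 (120 and 118 against 102 and 103 CPM, 0.16 ± 0.05) and Gins2 (82.3 and 82.0 against 69.0 and 74.2 CPM, 0.13 ± 0.06) were also higher, but Ccnb2 turned sign with GC and length offsets (-0.08) and Gins2 lost its call in 7 alternatives. Ccnd1 was at 281 and 273 against 288 and 299 CPM (-0.15 ± 0.05), and Ccnd3 at 134 and 134 against 126 and 139 CPM was not called (-0.05 ± 0.05). Beside this comparison, the endoderm markers summed to 1033 to 1143 CPM with Activin A and 165 to 190 CPM with Chiron. The pluripotency markers summed to 1058 to 1085 and 240 to 321 CPM, and the presomitic and somitic markers to 120 to 130 and 568 to 661 CPM. In the pluripotency list Pou5f1 (831 and 818 against 88.3 and 118 CPM) and Nanog were higher with Activin A. Sox2 (32.7 and 30.4 against 43.1 and 51.7 CPM), Esrrb and Zfp42 were lower, and Dppa5a overlapped. The part of these markers was not tested.

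At 120 h, 29 of the 35 were called lower with Activin A and none higher, 82.9% lower against 21.6% lower and 20.3% higher of all genes. The median log2 fold change was -0.31, beside -0.01 for all genes. Ccnd3 was at 82.0 and 85.9 CPM with Activin A and 138 and 139 CPM with Chiron (-0.77 ± 0.06). Rrm2 was at 257 and 267 against 372 and 391 CPM (-0.59 ± 0.05), and Rrm1 at 244 and 242 against 333 and 367 CPM (-0.57 ± 0.05). No library of one treatment reached the other for these genes, which were named for their large changes. Of 36 other replication genes 25 were lower and 0 higher, and of 34 other mitosis genes 30 lower and 1 higher. The 6 genes not called were Mcm7, Cdt1, Gins1, Gins2, Ccnb2 and Mki67. Ccnd1 was at 204 and 208 against 238 and 255 CPM (-0.31 ± 0.05). Ccnd2 was at 218 and 216 against 235 and 230 CPM (-0.15 ± 0.05) and lost its call with total counts alone (adjusted p = 0.12). Between the treatments at 120 h, the endoderm markers summed to 917 to 927 CPM with Activin A and 61.0 to 65.6 CPM with Chiron. The pluripotency markers summed to 114 to 115 and 320 to 335 CPM, and the presomitic and somitic markers to 359 to 367 and 661 to 706 CPM. The neural progenitor markers summed to 33.7 and 20.3 to 21.3 CPM, and the endothelium markers to 26.4 to 33.7 and 4.9 to 5.6 CPM. In the endothelium list Pecam1 went the other way, at 1.19 and 1.10 against 2.85 and 3.82 CPM. The part of all these markers in the result was not tested.

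The treatment effect at 120 h was called less positive than at 96 h for 17 of the 35 genes and more positive for 2, against 18.0% and 21.7% of all genes. Of the mitosis genes 10 of 14 were less positive, and of the replication genes 5 of 16. Ccnd3 (-0.72 ± 0.08) and Aurka (-0.65 ± 0.08) had the largest differences, and the effect on Aurka was 0.32 at 96 h and -0.33 at 120 h. Ccnd2 (0.74 ± 0.07) and Cdt1 (0.49 ± 0.08) were the 2 more positive genes.

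From 96 h to 120 h most helicase genes fell in each of the 3 gastruloid series, while Mki67, Cenpe and Aurkb rose in all 3. In wt Activin A gastruloids 25 of the 35 were called lower and 5 higher, against 37.8% and 37.2% of all genes. In Hox-/- Activin A gastruloids 18 were lower and 9 higher, against 37.6% and 34.9%, and GC and length offsets gave 13 and 14. In Chiron gastruloids 19 were lower and 8 higher, against 33.2% and 28.5%, with 15 and 11 under total counts alone and 16 and 11 under GC and length offsets. Of the 16 replication genes 12, 10 and 13 were lower in these series. Of the 14 mitosis genes 10, 4 and 3 were lower and 3, 6 and 6 higher. The 120 h libraries were the shallower ones in each series, so depth moves with time; its part was not tested. Markers moved with time too, and their part was not tested. From 96 h to 120 h the pluripotency markers went from 1058 to 1085 CPM to 114 to 115 CPM in wt Activin A, from 931 to 948 CPM to 28.0 to 29.1 CPM in Hox-/- and from 240 to 321 CPM to 320 to 335 CPM in Chiron gastruloids. In wt Activin A gastruloids Sox2 rose, from 32.7 and 30.4 to 43.0 and 43.3 CPM, while the rest of that list fell. In Chiron gastruloids Sox2, Zfp42 and Dppa5a rose, Pou5f1 and Esrrb fell, and Nanog overlapped. The endoderm markers went from 1033 to 1143 CPM to 917 to 927 CPM, from 589 to 608 CPM to 55.2 to 58.4 CPM and from 165 to 190 CPM to 61.0 to 65.6 CPM. In wt Activin A gastruloids Foxa1, Krt8, Krt18 and Cldn6 rose, Foxa2, Epcam and Cdh1 fell, and Sox17 overlapped. The presomitic and somitic markers went from 120 to 130 CPM to 359 to 367 CPM, from 146 to 159 CPM to 622 to 631 CPM and from 568 to 661 CPM to 661 to 706 CPM. Not all of that list rose. In wt Activin A gastruloids Meox1 went from 5.24 and 6.01 to 278 and 290 CPM, and Msgn1 from 77.2 and 72.9 to 5.51 and 4.17 CPM. Meox1 and Tcf15 rose and Msgn1 fell in all 3 series. Tbx6 rose only in Hox-/- gastruloids, and Mesp2 rose in both Activin A series, while each fell in the rest. The wt Activin A libraries enter both a genotype and a treatment comparison, so the values are given for each series and not related.

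Mcm3 was at 377 and 378 CPM at 96 h and 229 and 228 CPM at 120 h in wt Activin A gastruloids (-0.80 ± 0.04). In Chiron gastruloids it was at 417 and 449 and then 276 and 300 CPM (-0.70 ± 0.05). Mcm4 was at 299 and 310 and then 198 and 188 CPM in wt Activin A (-0.73 ± 0.04), and at 364 and 347 and then 223 and 230 CPM in Chiron (-0.76 ± 0.05). The times do not overlap for either gene, and both were named for their large changes. In Hox-/- gastruloids Mcm3 (-0.29 ± 0.04) and Mcm4 (-0.25 ± 0.04) fell less than in wt, and their differences were among those called above. Tyms was the third lowest there, at 145 and 145 and then 99.0 and 98.7 CPM (-0.57 ± 0.05).

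Mki67 was at 169 and 158 CPM at 96 h and 302 and 306 CPM at 120 h in wt Activin A (0.82 ± 0.04). It was at 139 and 138 and then 274 and 274 CPM in Hox-/- (0.97 ± 0.04), and at 212 and 174 and then 327 and 308 CPM in Chiron (0.62 ± 0.07). Ccne2 was at 37.7 and 36.2 and then 62.0 and 57.6 CPM in wt Activin A (0.62 ± 0.07), and at 44.6 and 38.7 and then 69.4 and 72.7 CPM in Chiron (0.67 ± 0.07). Gins2 was at 82.3 and 82.0 and then 133 and 123 CPM in wt Activin A (0.57 ± 0.05), and at 69.0 and 74.2 and then 115 and 119 CPM in Chiron (0.59 ± 0.06). In Hox-/- gastruloids Cenpe was at 34.5 and 35.7 and then 62.4 and 69.7 CPM (0.90 ± 0.06), and the kinetochore gene Cenpf at 67.0 and 64.4 and then 94.9 and 99.1 CPM (0.54 ± 0.05). Gins2 was called higher in all 3 series, with the smallest change in Hox-/- gastruloids (0.12 ± 0.05, adjusted p = 0.040), and it shares exon bases with Gse1. Cdc45 was also called higher in the Hox-/- series, at 65.4 and 63.2 and then 76.6 and 75.7 CPM (0.23 ± 0.06), and was not called in wt Activin A (0.00 ± 0.06) or Chiron gastruloids (-0.02 ± 0.06).

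The D-type cyclins differed by series. Ccnd2 was at 362 and 394 CPM at 96 h and 188 and 185 CPM at 120 h in Hox-/- (-1.03 ± 0.04), and at 365 and 381 and then 235 and 230 CPM in Chiron (-0.79 ± 0.05). In wt Activin A it was at 213 and 209 and then 218 and 216 CPM (-0.03 ± 0.04) and was not called; total counts alone turned its sign (0.04). Ccnd3 was at 134 and 134 and then 82.0 and 85.9 CPM in wt Activin A (-0.75 ± 0.05), and at 174 and 176 and then 115 and 111 CPM in Hox-/- (-0.64 ± 0.04). In Chiron it was at 126 and 139 and then 138 and 139 CPM, was not called (-0.05 ± 0.05), and turned sign under both total counts (0.06) and GC and length offsets (0.07). Ccnd1 fell in all 3 series (-0.50 ± 0.05, -0.39 ± 0.05 and -0.36 ± 0.05), from 281 and 273 to 204 and 208 CPM in wt Activin A, from 241 and 271 to 203 and 191 CPM in Hox-/- and from 288 and 299 to 238 and 255 CPM in Chiron.

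**Figure D3:**
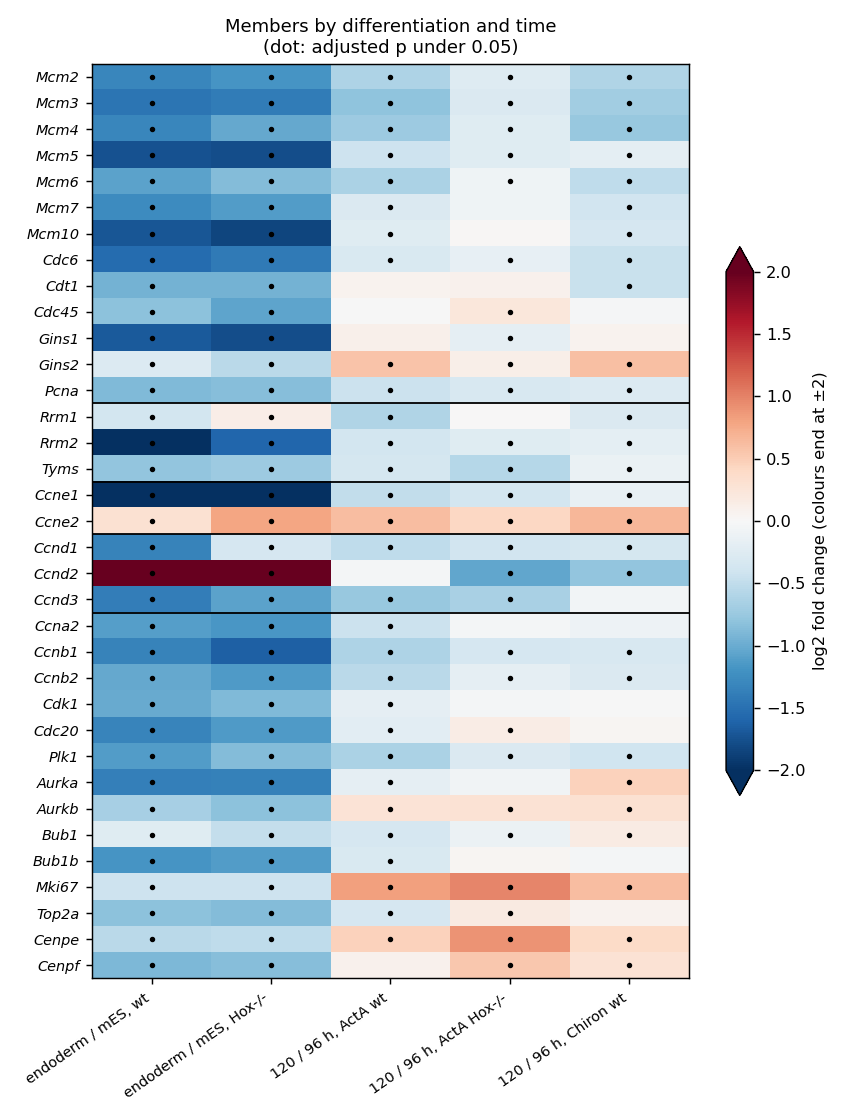
Log2 fold change (colour, ending at ±2) of the 35 genes from mES cells to endoderm in both genotypes and from 96 h to 120 h in 3 gastruloid series, with a dot for an adjusted p under 0.05. The endoderm columns are blue for nearly all genes except Ccnd2 and Ccne2, and in the time columns Mki67, Ccne2 and Cenpe are red in all 3 series.

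Set against each other in a library, the 16 replication genes summed to more counts than the 14 mitosis genes in every library. As a mean of log2(CPM + 1) per gene, replication minus mitosis was -0.009 in wt endoderm replicate 1 and -0.039 in Hox-/- endoderm replicate 2. It was above 0 in every other library. The log2 ratio of the summed CPM of the 2 classes is free of library scaling. It was 0.71 and 0.69 in wt and 0.63 and 0.57 in Hox-/- mES cells, and 0.35, 0.37 and 0.40 in wt and 0.44, 0.37 and 0.46 in Hox-/- endoderm. In gastruloids at 96 h it was 0.63 and 0.64 in wt Activin A, 0.74 and 0.80 in Hox-/- Activin A and 0.79 and 0.83 in Chiron libraries. At 120 h it was 0.40 and 0.42, 0.52 and 0.51, and 0.35 and 0.42. The 120 h mean minus the 96 h mean was -0.22, -0.255 and -0.42, and no library of one time reached the other. The endoderm mean minus the mES mean was -0.33 in wt and -0.17 in Hox-/- cells. Hox-/- exceeded wt at both times in Activin A gastruloids (by 0.14 and 0.10) and lay below wt in mES cells (-0.10), with no overlap of libraries. In endoderm the genotypes overlapped (0.05), as did the treatments at 120 h (0.02). The members were chosen with results known, so no test was made of these ratios.

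**Figure D4:**
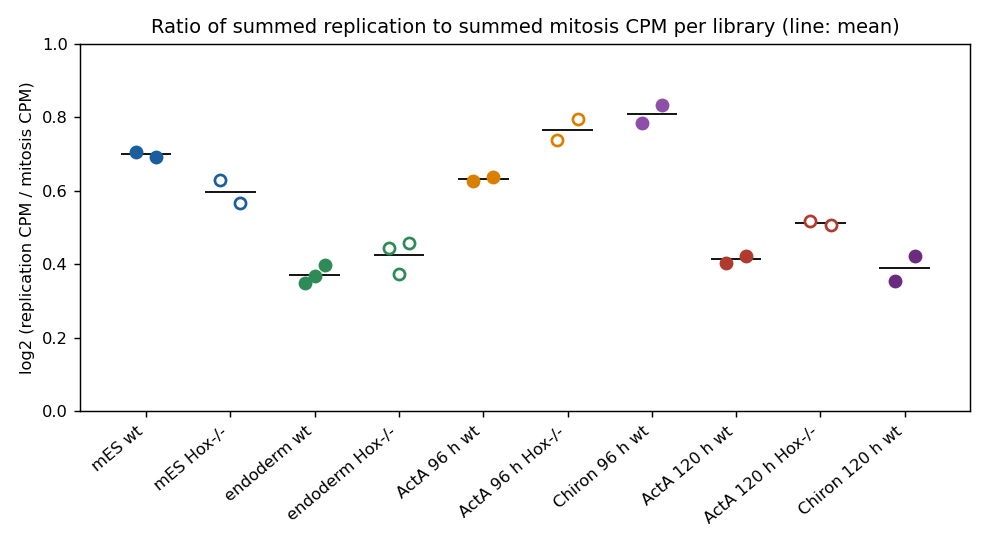
Log2 ratio of summed replication to summed mitosis CPM, one point per library in the 10 groups, with the group mean as a line, filled for wt and open for Hox-/-. The 96 h gastruloid libraries lie between 0.63 and 0.83 and the 120 h libraries between 0.35 and 0.52.

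Summed over the genes, the 16 replication genes stood at 5926 ± 24.4 CPM (mean ± SD, n = 2) in wt mES cells and 2681 ± 24.3 CPM (n = 3) in wt endoderm, and the 14 mitosis genes at 3650 ± 41.9 and 2073 ± 46.8 CPM. In Activin A gastruloids at 120 h the replication genes stood at 3246 ± 8.50 CPM in wt and 3840 ± 15.8 CPM in Hox-/- libraries, and the mitosis genes at 2438 ± 27.4 and 2693 ± 4.37 CPM. In Chiron gastruloids the replication genes went from 4639 ± 78.0 to 3872 ± 141 CPM between the times, and the mitosis genes from 2645 ± 18.5 to 2956 ± 7.44 CPM. The widest range of a single gene was that of Ccnd2, from 1.34 CPM in Hox-/- mES cells to 378 CPM in Hox-/- Activin A gastruloids at 96 h. Among the rest the ratio of the highest to the lowest group mean ran from 1.63 (Rrm1) to 5.12 (Ccne1).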

How the data were processed

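Poly(A) RNA was sequenced in 22 libraries from 10 groups, assigned from the labels. The counts deposited by the authors are whole numbers per gene and library with no normalization, and the FPKM values deposited by the authors scale fragments by transcript length and library total. The submitters' processing notes name cutadapt 1.16, STAR, Cufflinks 2.2.1 and mm10. The counting tool and its use of strand are not given in the sources used here. Counts were tested with edgeR 4.0.16 in R 4.3.3 (filterByExpr, TMM, one coefficient per group, quasi-likelihood test, Benjamini-Hochberg adjustment over all genes, threshold 0.05). The fits were also run on simulated counts with the same spread for every gene and few changed genes. The data differ from those settings, so that run does not measure error rates here. The mES and endoderm tables were fitted alone, each gastruloid table over its 4 groups, and the stage contrasts over the mES and endoderm libraries joined by gene. CPM and summed CPM were computed from the counts; log2 ratios of sums have no test. Alternatives used RLE size factors, total counts, GC and length offsets, no filter, DESeq2 1.42.0, a replicate block, other sets of libraries and each library left out. Replicates differed beyond counting error (chi-square per degree of freedom 1.40 to 11.3), and no label says that they came from separate cultures, so p-values measure only the spread between these samples. The highest value was that of Chiron gastruloids at 96 h, beside 1.40 to 3.93 for the other groups of that fit. The 4 groups share one spread, so SE and adjusted p of comparisons with Chiron at 96 h may be too small. Floors of 3 counts cover counting error only. Genes were named by rule: the 3 D-type cyclins, up to 3 called members per direction and comparison with the largest log2 fold change (2 for differences between effects), up to 2 listed pathway genes per direction in genotype comparisons, and 4 CDK inhibitors; other genes were named after their values were seen. Statements that libraries of a gene do not overlap describe genes chosen mostly for large changes, and the share over all genes is not given. Marker lists of 8 cell types were read as counts and sums. Mainly those of pluripotent cells, endoderm and presomitic and somitic mesoderm are given beside results. Over all libraries the neural progenitor markers summed to at most 33.7 CPM, heart muscle 7.88 and primitive red blood cells 1.20 CPM. The endothelium and differentiating neuron lists were highest in mES cells, at 184 CPM in Hox-/- and 312 CPM in wt. These mES sums were mostly Pecam1, and Stmn2 with Tubb3. Outside mES cells the 2 lists reached 49.3 CPM and 87.2 CPM, in Hox-/- Activin A gastruloids at 120 h and 96 h. The members and lists were chosen with earlier results of these data known. A comparison of the D-type cyclin proteins was planned and was not analysed here.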

Additional observations from a re-analysis of the deposited data

Results flagged for a closer look

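The effects below were flagged because the difference between 2 effects was itself tested with edgeR and called. In Activin A gastruloids the effect of genotype was not the same at 96 h and 120 h for 24 of the 35 genes, with log2 differences of 0.60 for Rrm1, 0.55 for Mcm6, -1.0 for Ccnd2 and -0.45 for Gins2. Between the same times the effect of Activin A against Chiron differed for 19 genes, with 0.74 for Ccnd2, 0.49 for Cdt1, -0.72 for Ccnd3 and -0.65 for Aurka. Between mES cells and endoderm the genotype effect differed for 11 genes, with 1.01 for Ccnd1, 1.00 for Ccnd2, -0.29 for Ccnb1 and -0.24 for Cdc45. The call for Ccnd2, which was very low in mES cells, was lost when any mES library was left out. The call for Cdc45 was lost in 10 alternatives (adjusted p = 0.050 to 0.36), among them the omission of any mES library, wt endoderm replicate 2 or Hox-/- endoderm replicate 1 or 3. No group held 4 or more libraries, so single libraries were not screened as outliers.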

How the results depend on the processing

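The alternatives kept the direction of most results. Of 214 counts of members under other settings 186 stayed within 1.5 times, as did 127 of 148 with 1 library left out. The cause of each shift was not tested. Shares of all genes called under each setting are not given beside these counts, so a shift of all genes is not separated from one of the members. The replicate numbers did not pair the samples (correlations of -0.07 to 0.106 across tables), and the replicate block moved the mES counts from 1 higher and 4 lower to 3 and 9 and no other count by over 1.5 times. With GC and length offsets, members called higher and lower were 2 and 9 in mES cells and 15 and 4 in endoderm. They gave 20 higher in Activin A gastruloids at 96 h, 1 lower at 120 h, 1 higher for treatment at 96 h, 14 higher over time in Hox-/- gastruloids, 2 less positive for genotype by time and 1 for genotype by differentiation. Total counts alone gave 10 lower for genotype and 6 higher for treatment at 96 h, 8 higher over time in wt Activin A gastruloids, and 4 less positive for genotype by differentiation. No filter gave 10 lower at 96 h, 1 lower at 120 h, and 2 and 1 less positive for these differences. DESeq2 gave 4 lower in endoderm, 7 higher at 96 h, 1 lower at 120 h, and 2 and 1 less positive. One fit over all 22 libraries gave 1 lower at 120 h, and 2 and 4 less positive.

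Leaving out 1 library gave 0 to 3 higher and 1 to 7 lower in mES cells (0 and 1 without wt replicate 1; 3 and 7 without Hox-/- replicate 1; 2 higher without Hox-/- replicate 2). It gave 3 to 7 lower in endoderm (3 without wt replicate 2 and 4 without Hox-/- replicate 1), and 1 to 2 lower for genotype at 120 h (each library). It gave 2 to 5 higher for treatment at 96 h (5 without Chiron replicate 2), 5 to 9 higher over time in Chiron gastruloids (5 without 120 h replicate 1) and 1 to 2 higher from mES cells to endoderm in wt cells (1 without replicate 1 of either). Less positive treatment effects over time numbered 10 to 20 (10 without wt Activin A 120 h replicate 1). For genotype by differentiation 5 to 10 were more positive (5 without wt mES replicate 2) and 1 to 3 less positive (1 without wt mES replicate 1, Hox-/- mES replicate 2, wt endoderm replicate 2 or Hox-/- endoderm replicate 1).

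Signs under the alternatives were followed only for the members named by rule in each comparison. Among these, signs turned only for genes near 0, besides Gins1 and Ccnb2. For genotype these were Ccnd2 (-0.2103 to 0.0066 with 1 library left out, high without wt replicate 2) and Ccnd3 (-0.0176 to 0.152, low without Hox-/- replicate 1) in mES cells, Ccnd1 at 96 h (0.0208 with GC and length offsets, -0.1461 to 0.0194 with 1 library left out, high without Hox-/- replicate 1) and at 120 h (-0.0641 with total counts), and Gins1 at 120 h (0.031 with GC and length offsets). For treatment at 96 h they were Ccnb2 (-0.0775 with GC and length offsets) and Ccnd3 (0.0159 with total counts, -0.0771 to 0.0558 with 1 library left out, high without Chiron replicate 2). Over time they were Ccnd2 in wt Activin A (0.0421 with total counts) and Ccnd3 in Chiron gastruloids (0.0561 with total counts, 0.0652 with GC and length offsets, -0.0817 to 0.0513 with 1 library left out, high without 96 h replicate 2).

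The log2 replication to mitosis ratio was also taken as a mean of log2(CPM + 1), from summed FPKM and without Mcm7 and Top2a. The mean log gave -0.0043 for genotype in endoderm, 0.172 and 0.0583 for genotype at 96 h and 120 h, -0.164 and -0.368 for time in wt Activin A and Chiron gastruloids, and -0.264 for wt differentiation. Summed FPKM gave 0.170 and 0.131 for genotype at 96 h and 120 h, -0.226 and -0.0008 for treatment, -0.161 and -0.200 for time in wt and Hox-/- Activin A gastruloids, and -0.225 and -0.0855 for wt and Hox-/- differentiation. Without Mcm7 and Top2a it was 0.143 for genotype and -0.0397 for treatment at 120 h, -0.271 for time in wt Activin A gastruloids and -0.291 for wt differentiation. Leaving out 1 library gave -0.0106 to 0.0587 for treatment at 120 h, the low value without Chiron replicate 1.

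Depth of 9.11 M to 28.8 M counts limits the precision of low genes such as Ccnd2 in mES cells.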
